A study of Mus musculus with 3 samples.

Results

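Vwf, the gene encoding von Willebrand factor, was described at the level of open chromatin in aged long-term hematopoietic stem cells (HSCs). It was 1 gene of the 55413 annotated on the nuclear chromosomes, and its fragments were read over the gene body and 20 kb on each side. The HSCs came from bone marrow of C57BL/6 wild-type females at 24 months of age, and 1 pool of these cells was profiled by DOGMA-seq, which reads accessible chromatin (ATAC), RNA and surface antibody tags from the same cell. Of 4369 barcodes called as cells, 3724 were in the antibody table, all of them with ATAC fragments, and 3629 carried at least 10 antibody tags and were kept. The pool gave 3 libraries with no replicate, so no difference below has a replicate check and none carries a p-value. All intervals are 95% intervals for counting error only. RNA of Vwf was not analysed here, so the values concern chromatin and not expression.

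Von Willebrand factor is a large secreted glycoprotein that tethers platelets to the injured vessel wall and carries coagulation factor VIII in plasma. Endothelial cells and megakaryocytes make it, and platelets store it in their alpha granules. In the mouse, a Vwf reporter also labels a part of the HSCs, which holds platelet-biased stem cells (PLT-HSCs) together with multilineage stem cells (MUL-HSCs). In ATAC, the transposase Tn5 inserts into DNA that is not covered by nucleosomes, and each fragment marks 2 insertions in 1 cell.

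In the annotation of the mm10 build, Vwf (ENSMUSG00000001930.17) lies on the plus strand at chr6:125546774-125686679. Its full-length transcript Vwf-203 has 52 exons and starts at position 125552948, and distances below are counted from there, with positive values in the direction of transcription. One further protein-coding transcript with weak support, Vwf-201, starts at −6.174 kb and sets the left end of the annotated gene. The only other gene annotated within the flanks is Ano2, which encodes a calcium-activated chloride channel, and its start lies at +137.471 kb. The centres of the 4 most widely open sites are given here as sequence because the results on Vwf turn on them. Each is the 300 bp stretch of its site with the most insertions, read on the plus strand of GRCm38.p6, the build that mm10 names. Capitals mark letters of 1 of the motifs that were searched on both strands, namely AGATAA for GATA factors, GGAAG for ETS factors, TGTGGT for RUNX factors and TGANTCA for AP-1 and NF-E2. The CTCF motif was searched too.
+20.5 kb site, intron 6, chr6:125573253-125573552: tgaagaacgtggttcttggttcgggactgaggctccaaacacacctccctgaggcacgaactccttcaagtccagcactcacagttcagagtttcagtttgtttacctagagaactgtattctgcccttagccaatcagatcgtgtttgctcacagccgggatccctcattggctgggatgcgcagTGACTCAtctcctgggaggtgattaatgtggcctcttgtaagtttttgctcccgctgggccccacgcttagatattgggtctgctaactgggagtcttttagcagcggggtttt
+50.5 kb site, over exon 14, chr6:125603280-125603579: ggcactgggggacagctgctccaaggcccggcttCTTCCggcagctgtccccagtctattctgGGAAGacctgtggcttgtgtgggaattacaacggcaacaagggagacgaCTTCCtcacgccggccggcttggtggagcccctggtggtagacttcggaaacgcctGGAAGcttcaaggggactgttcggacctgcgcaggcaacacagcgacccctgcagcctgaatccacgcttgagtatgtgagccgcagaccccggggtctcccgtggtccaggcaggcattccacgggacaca
+42.1 kb site, intron 10, chr6:125594855-125595154: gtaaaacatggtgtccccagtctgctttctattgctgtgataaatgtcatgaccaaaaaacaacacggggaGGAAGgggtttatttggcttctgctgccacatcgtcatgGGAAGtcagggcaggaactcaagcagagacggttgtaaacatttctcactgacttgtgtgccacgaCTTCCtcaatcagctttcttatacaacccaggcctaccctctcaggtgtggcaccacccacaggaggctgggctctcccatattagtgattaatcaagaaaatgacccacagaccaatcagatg
+47.4 kb site, intron 12, chr6:125600152-125600451: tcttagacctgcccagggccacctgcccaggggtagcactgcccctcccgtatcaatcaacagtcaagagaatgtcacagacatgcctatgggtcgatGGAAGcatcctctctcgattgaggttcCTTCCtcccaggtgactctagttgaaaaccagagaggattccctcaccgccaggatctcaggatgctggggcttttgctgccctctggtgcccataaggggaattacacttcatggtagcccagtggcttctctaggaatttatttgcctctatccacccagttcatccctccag

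The +20.5 kb centre held a single match, TGANTCA at its bases 187 to 193, and no match to GGAAG. The TGANTCA motif was present in 8.68% of equally long middles of all open windows of the genome and in 7.81% of 32851 RefSeq promoters. These middles are fixed positions in each window and, unlike the site centres, were not placed where insertions were most frequent. The 2 kinds of region are therefore unlike. The other centres shown held GGAAG only, with 4 matches at +50.5 kb, 3 at +42.1 kb and 2 at +47.4 kb. This motif was in 69.2% of open window middles. Across all 19 open sites of the locus, GGAAG was found in 16, TGANTCA in 4, TGTGGT in 4, AGATAA in 3 and the CTCF motif in 2. These are 84.2%, 21.1%, 21.1%, 15.8% and 10.5% of the sites, beside 69.2%, 8.68%, 21.8%, 12.98% and 4.78% of open window middles of the genome. The CTCF matches were at +69.8 kb and +108.8 kb. Of the +42.1 kb centre, 70.0% was marked as repeat or low-complexity sequence in the RefSeq genome, against 0% at +20.5 kb, 3.33% at +50.5 kb and 21.7% at +47.4 kb. A match is a description of letters and not of binding.

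Fragments over Vwf were found in most of these HSCs. The locus, with its flanks, received 9085 fragments, or 236 counts per 1000000 nuclear fragments (CPM), which is 3.58 times the density of the genome as a whole. At least 1 fragment was found in 3159 of 3629 cells, a share of 87.0% (85.9 to 88.1), at a median depth of 10287 nuclear fragments per cell (range 3853 to 45069). When each cell was thinned to 6000 fragments, which left out 244 shallower cells, the share was 73.4%. Cells held a median of 2 fragments over the locus. Among 17820 genes with 2000 fragments or more, 23.6% had a most open window at least as open as that of Vwf. Of all fragments, 91.5% lay over the gene body, 78.7% touched an open window and 24.0% touched the +20.5 kb site alone.

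In 500 bp windows, 56 of 359 at the locus were open, meaning an insertion in at least 1% of cells. That is 15.6% of its windows, beside 3.91% of the 5451055 windows of the nuclear genome. The genome windows lie inside and outside genes alike, and the same share over other gene loci was not computed. The open windows were unevenly placed, with 50 of 281 in the gene body, 4 of 39 in the upstream flank and 2 of 39 in the downstream flank. The median window of the locus was open in 0.276% of cells. Insertions in at least 10% of cells were found in 8 windows, or 2.23% of the locus beside 0.394% of the genome, and these 8 fell into the +20.5 kb, +42.1 kb and +50.5 kb sites. Adjacent open windows formed 19 open sites, 1 of them upstream of the annotated gene, 1 downstream and 17 over the gene body.

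**Figure D1:**
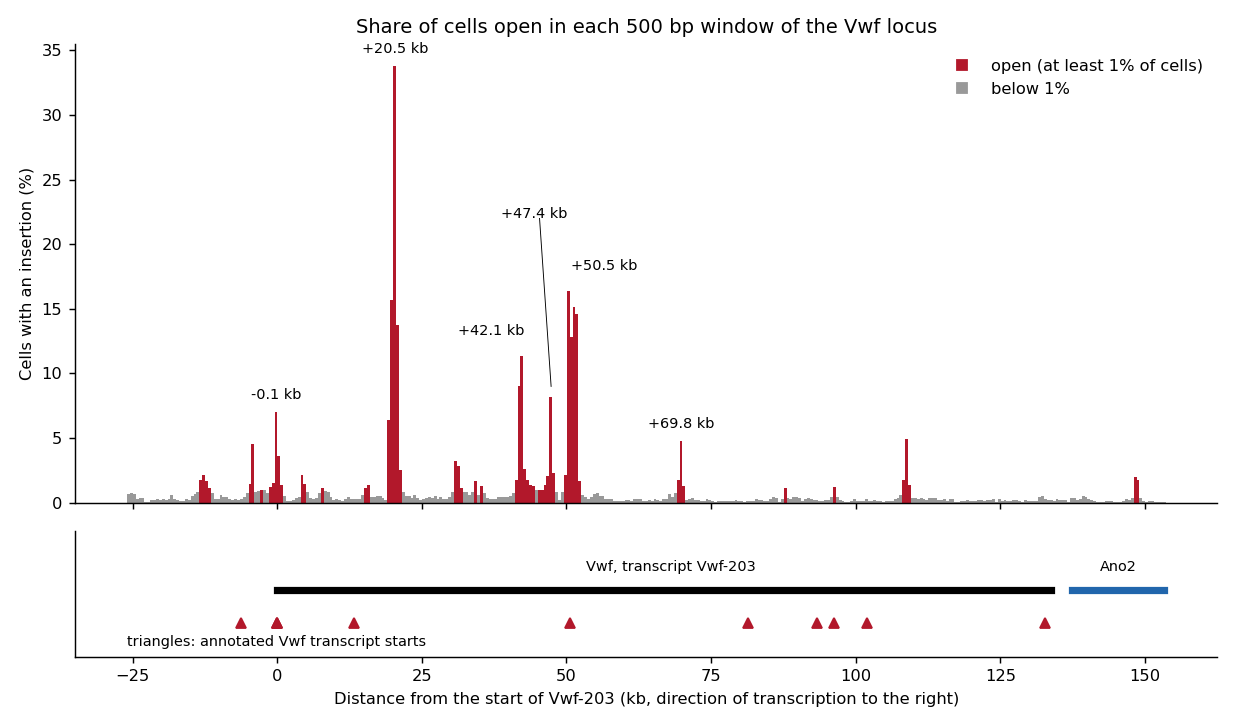
Share of cells with an insertion in each 500 bp window (vertical axis, percent of 3629 cells) against the distance from the start of Vwf-203 (horizontal axis, kb). Red bars are open windows (at least 1% of cells) and grey bars the rest, the black line is Vwf-203, the blue line Ano2 and triangles mark annotated Vwf transcript starts. The tallest window, within the +20.5 kb site, was open in 33.8% of cells, against 7.0% for the tallest window at the main promoter.

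The site at +20.5 kb, in intron 6, was the most widely open, with 2183 fragments in 41.6% of cells (40.03 to 43.26). It spanned 5 windows and was open in 33.8% of cells at its tallest one. The +50.5 kb site came next with 1698 fragments in 35.4% of cells (33.8 to 37.0), and 4 of its 6 windows were open in 12.8% to 16.4% of cells, with the outer ones at 2.15% and 1.71%. The intervals of these 2 sites did not overlap. This second site covered exon 14 (125603324 to 125603519) and also the annotated start of Vwf-206, a processed transcript that begins at +50.602 kb. The +42.1 kb site in intron 10 was open in 18.2% of cells (16.9 to 19.5), and the +47.4 kb site in intron 12 in 10.9% (9.92 to 11.97).

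The promoter of the full-length transcript, at −0.1 kb and over exon 1, was open in 10.2% of cells (9.26 to 11.3), with 408 fragments. Its interval overlapped that of the +47.4 kb site, so the order of these 2 was not resolved. The +69.8 kb site in intron 18 followed at 5.68% (4.95 to 6.48). The remaining 13 sites were open in 1.16% to 5.43% of cells. Among them, the −4.3 kb site between the starts of Vwf-201 and Vwf-203 was open in 4.99%, the −12.6 kb site in the upstream flank in 4.66%, and the +148.5 kb site in the downstream flank, within Ano2, in 2.78%. Fragments under 150 bp, too short to span a nucleosome, made up 36.7% at +20.5 kb, 36.5% at +42.1 kb, 33.5% at +50.5 kb and 27.5% at the promoter. They made up 16.5% in the locus outside open windows and 33.2% of all fragments of the kept cells.

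Of the 11 annotated Vwf transcripts, the start of Vwf-206 had the most fragments within 1 kb, 1458 in 31.5% of cells (30.01 to 33.06). The shared promoter of Vwf-203, Vwf-202 and Vwf-211 had 382 fragments in 9.67% of cells (8.73 to 10.7). The upstream start of Vwf-201 had 41 fragments in 0.992% of cells, and that of Vwf-204, at +13.303 kb, had 35 in 0.964%. The other 5 starts, between +81.4 kb and +132.789 kb, had 12 to 60 fragments in 0.331% to 1.57% of cells. Whether transcription begins at any of these starts in HSCs was not tested, since only chromatin was read. The start of Ano2 had 26 fragments in 0.634% of cells.

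The openness of Vwf was set beside that of genes whose products act with von Willebrand factor or share its granules. Of the 18 genes listed, Mmrn1 was not analysed here, and the other 17 had a median of 8.39 CPM within 1 kb of the gene start, against 9.92 for all 21938 protein-coding genes. On this scale, which uses 2 kb for every gene, the Vwf-203 start had 9.92 and the Vwf-206 start 37.9. The 4 highest were Itgb3 with 23.7, Thbs1 with 22.3, Cd9 with 21.8 and Itga2b with 21.5. Itga2b and Itgb3 encode the platelet fibrinogen receptor, which also binds von Willebrand factor, Thbs1 encodes the granule protein thrombospondin and Cd9 a tetraspanin. The 4 lowest were Gp6, the platelet collagen receptor, with 0.156, Ppbp and Clec1b, a granule chemokine and the podoplanin receptor, both with 0.831, and Adamts13, the protease that cleaves von Willebrand factor, with 1.32. Gp1ba, which encodes the chain of the platelet receptor that binds von Willebrand factor, had 18.8, and F8, the gene of its cargo factor VIII, had 8.34. The main Vwf promoter was below 7 of the 17 genes and above 10, whereas the Vwf-206 start was above all 17 at their annotated gene starts. Read at its own annotated gene start, that of Vwf-201, Vwf had 1.06 CPM and 14 of the 17 genes were above it. Per kb of gene body, Vwf had 1.54 CPM, and 9 of the 17 genes were above it, around a median of 1.63. When each listed gene was given its most open annotated start, Itga2b reached 67.7, above Vwf-206.

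**Figure D2:**
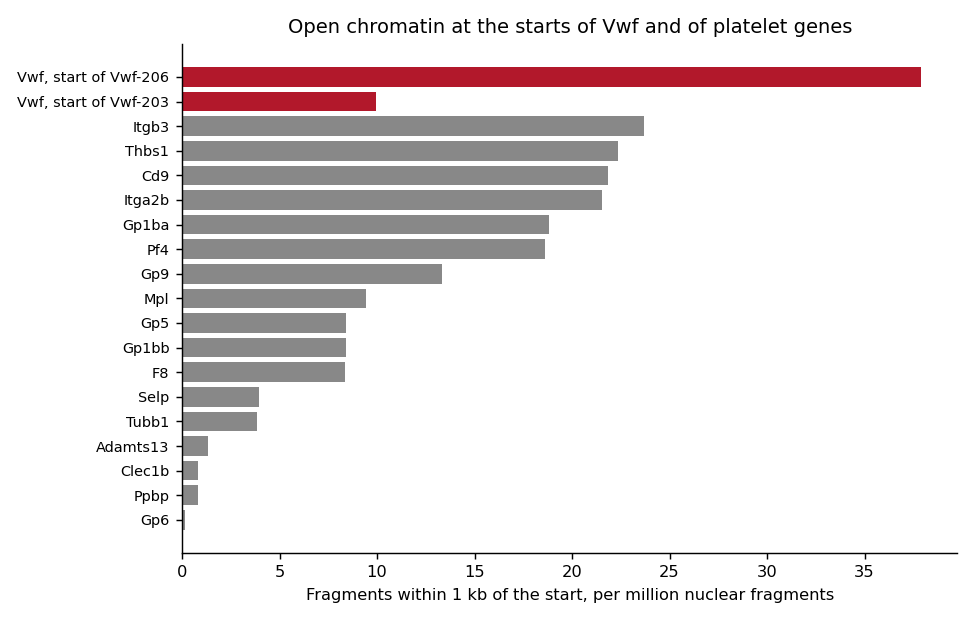
CPM, the fragments within 1 kb of the start per 1000000 nuclear fragments (horizontal axis), for 17 platelet genes at their annotated gene start (grey) and for 2 starts of Vwf (red). The main promoter of Vwf, at 9.92, lies in the middle of the list, and its internal start at +50.602 kb, at 37.9, lies above every grey bar.

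The sorted population was checked at the same scale, since endothelial cells and megakaryocytes also use Vwf. The study defines HSCs in its sort as Sca-1, c-Kit and CD150 positive cells without lineage markers, CD48 or CD34. The 8 HSC markers had a median of 9.96, close to the 9.92 of all protein-coding genes, and ranged from 0.494 to 43.7. Kit, Hlf, Meis1 and Fgd5 were above this median, and Procr (7.90), Slamf1 (4.29), Ly6a (2.99) and Mecom (0.494) were below it. The 8 endothelial markers had a median of 3.71 (0.390 to 19.2). Kdr (19.2), Flt1 (12.5) and Robo4 (12.1) were above the median of all genes, and Mmrn2, Plvap, Cdh5, Ptprb and Stab2, at 4.52 to 0.390, were below it. All 8 genes of each list had fragments. Megakaryocyte genes had a median of 10.9, erythroid genes 0.818, myeloid genes 1.70, B cell genes 2.27 and T cell genes 0.597. All these values were read at the annotated gene start. At each gene's most open annotated start the medians were 21.5 for HSC, 3.84 for endothelial, 12.9 for megakaryocyte and 1.09 for erythroid genes. They were 2.13 for myeloid, 7.47 for B cell and 4.31 for T cell genes. Mecom had 56.8 at its most open start. The part of other cells in the Vwf signal was not tested.

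Vwf fragments varied between cells somewhat more than depth alone would give. Cells without a fragment made up 12.95%, against 10.6% expected from each cell's depth, cells with 2 fragments 21.5% against 23.8%, and cells with 7 fragments 2.18% against 1.55%. The variance of Vwf counts was 1.26 times the expected value, beside a median of 1.19 over 17820 genes that had 2000 fragments or more, of which 11.7% reached 1.26. Vwf had more fragments than most of these genes (9085 against a median of 3649), and among the 5792 genes with 0.5 to 2 times its fragments, 16.6% reached this ratio. The spread beyond counting noise, as a squared coefficient of variation, was 0.0937 for Vwf and 0.158 for the median gene. By this measure, 85.1% of the 17820 genes were at or above Vwf. The deepest cell of all, with 45069 nuclear fragments and an excess of overlapping fragments, held 31 Vwf fragments, and without it the ratio was 1.22. The distribution over cells had a single peak, at 1 to 2 fragments, so at this depth cells with a closed locus could not be told from cells in which no fragment was caught.

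**Figure D3:**
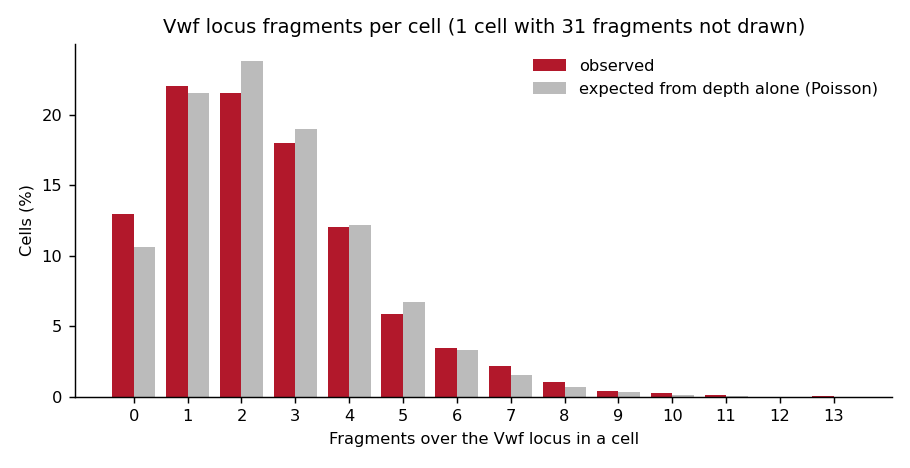
Share of cells (vertical axis, percent) by the number of fragments over the Vwf locus (horizontal axis), observed in red and expected from cell depth alone in grey. Observed shares exceed the expected ones at 0 and 1 fragment and from 6 to 11, and are below them from 2 to 5, and 1 cell with 31 fragments is not drawn.

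Open sites of Vwf were found together in a cell about as often as their separate shares and the cells' depths would give. A fragment at +20.5 kb and one at +50.5 kb were both present in 575 cells, where 564 were expected (ratio 1.02, 0.937 to 1.11). For +20.5 kb and the promoter the count was 154 against 165 (0.933, 0.791 to 1.09), and for +50.5 kb and the promoter 143 against 141 (1.01, 0.854 to 1.19). Among the 15 pairs of the 6 leading sites, only +42.1 kb with +47.4 kb had an interval above 1, with 100 cells against 78.2 (1.28, 1.04 to 1.55), and 6 fragments of these neighbours reached both sites. Cells with a fragment at +20.5 kb had 177 CPM over the rest of the locus, at least 1 kb away, and cells without one had 179. The log2 ratio was −0.02 (−0.09 to 0.05) in 1511 against 2118 cells. Between its own tallest window and the rest of the locus the ratio for Vwf was −0.05 (−0.12 to 0.03), where the median gene had 0.04 and 2.48% of genes were at least 1.2-fold higher.

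The study sorted PLT-HSCs as CD61 and CD274 high with CD357 and CD27 low, and MUL-HSCs by the opposite pattern. CD61 is the integrin encoded by Itgb3, CD274 is the immune checkpoint ligand PD-L1, and CD357 (GITR) and CD27 are receptors of the tumor necrosis factor receptor family. Cells with high and low tag counts were compared at the cuts nearest to the top and bottom 25%, on the log2 scale of fragments per nuclear fragment. A gene was called apart at 1.2-fold and a site or window at 1.5-fold. At the whole locus, Vwf was called apart for none of the 4 antibodies in the 3629 cells. In the 363 cells with at least 50 tags it was for CD274, at 0.27 (0.02 to 0.52) in 88 against 94 cells. The cuts were set anew in these cells, at 52 or more and 38 or fewer CD274 tags. In all kept cells they were at least 27 and at most 12, so the 2 contrasts are unlike. Among the 363 cells 14.7% of 10344 genes were called apart. Among the 4 antibodies in the 3629 cells the largest difference was for CD357, where cells with at least 5 tags had 222 CPM and cells with at most 1 tag had 245, a log2 ratio of −0.14 (−0.22 to −0.06). Over open windows alone it was −0.09 (−0.18 to 0.00), an interval that included 0.

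For CD357, 4.37% of 33859 genes were called apart, and 90.1% of genes had a ratio at or above that of Vwf. Across CD357 counts of 0, 1, 2, 3, 4, 5 to 6 and 7 to 24, the locus had 243, 246, 231, 246, 240, 223 and 222 CPM. The lower values were in the bins from 5 tags upwards. At single sites the difference was clearest at +42.1 kb, with 19.1 CPM in CD357 high and 24.3 in CD357 low cells (log2 ratio −0.35, −0.61 to −0.09). The tallest window of this site had −0.29 (−0.64 to 0.05). On the centred log ratio, which scales the tags within each cell, the site had −0.23 (−0.52 to 0.07). Both of these intervals included 0. Cells split by tags that matched no antibody (at least 6 against at most 2) differed at the same site by −0.40 (−0.67 to −0.12), and this split at the whole locus gave −0.04 (−0.12 to 0.05). The +20.5 kb site and the promoter had 0.09 (−0.07 to 0.25) and −0.05 (−0.44 to 0.33) for CD357.

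For CD274, the locus as a whole was at 233 CPM in 937 cells with at least 27 tags and 238 in 877 cells with at most 12, a log2 ratio of −0.03 (−0.11 to 0.05), where 7.82% of 32744 genes were called apart. At +20.5 kb, CD274 high cells had 628 fragments, or 60.8 CPM, and CD274 low cells 448, or 47.9 CPM, a log2 ratio of 0.34 (0.17 to 0.52). A fragment at this site was present in 45.9% (42.7 to 49.1) of high and 36.9% (33.7 to 40.2) of low cells, at median depths of 10296 and 10472, and after thinning in 29.6% and 24.0%. The rest of the locus, without this site, had −0.14 (−0.24 to −0.05), a remainder that is lower by construction because the site was taken out after its ratio was seen. CD274 high cells had a median of 46 antibody tags in all and CD274 low cells 17. On the centred log ratio of tags, the ratio at +20.5 kb was 0.30 (0.12 to 0.47). Cells split by tags that matched no antibody differed at +20.5 kb by −0.10 (−0.27 to 0.08). The part of the total tag count in the difference by CD274 was not tested. The difference at +20.5 kb by CD274 was below the 1.5-fold used for sites, and it was a comparison within 1 pool.

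Across CD274 counts of 0 to 9, 10 to 14, 15 to 19, 20 to 24, 25 to 29, 30 to 39 and 40 to 110, the +20.5 kb site was open in 35.1%, 39.5%, 38.5%, 44.1%, 49.1%, 42.5% and 48.9% of cells. The 4 bins from 20 tags upwards were all above the 3 bins below them, though intervals of neighbouring bins overlapped. The +50.5 kb site was open in 36.7%, 35.2%, 34.1%, 34.0%, 35.5%, 36.3% and 38.2% of cells over the same bins, with no such order. It had 42.8 to 46.0 CPM over these bins, and a log2 ratio of 0.08 (−0.12 to 0.28) between CD274 high and low cells. Of 6036 open windows with at least 500 fragments over both groups, 2.07% had a ratio at or above that of the tallest window at +20.5 kb, which was 0.30 (0.10 to 0.51), and the median of these windows was 0.04. The tallest window at +50.5 kb had 0.34 (0.03 to 0.67), with 198 and 141 fragments, and that of the promoter 0.37 (−0.14 to 0.90), with 79 and 55, so the single windows did not set +20.5 kb apart from these sites. The whole promoter site had 0.22 (−0.20 to 0.64) by CD274. Over the CD274 bins its CPM was 6.48, 12.8, 9.64, 12.4, 9.85, 11.4 and 9.85. The interval of the lowest bin, 4.40 to 9.19, lay below those at 10 to 14 (10.4 to 15.6) and 20 to 24 tags (9.78 to 15.4). It overlapped those of the other bins. In cells at or below the median for CD357 the ratio at +20.5 kb by CD274 was 0.56 (0.32 to 0.79), and in cells above it 0.04 (−0.24 to 0.32). For cells at or below and above the CD61 median it was 0.43 (0.18 to 0.68) and 0.22 (−0.04 to 0.50). Likewise it was 0.38 (0.18 to 0.58) and 0.34 (−0.06 to 0.77) for CD27. For tags matching no antibody it was 0.41 (0.16 to 0.66) and 0.35 (0.06 to 0.66). These strata were chosen after the values were seen, and the differences between them were not tested. Of the 9 sites with at least 100 fragments over both groups, 1 was past 1.5-fold for CD274, at +30.9 kb with 44 against 62 fragments and −0.63 (−1.23 to −0.06), beside 3.70% of 50476 open windows.

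For CD61, the locus had 233 CPM in 779 cells with at least 6 tags and 235 in 727 cells with at most 1, a log2 ratio of −0.02 (−0.11 to 0.08), where 5.40% of 31367 genes were called apart. The +20.5 kb site had −0.07 (−0.26 to 0.12) and the +50.5 kb site 0.03 (−0.18 to 0.25). The promoter had 12.4 CPM in high and 9.55 in low cells, with 108 and 72 fragments, a log2 ratio of 0.37 whose interval included 0 (−0.07 to 0.83). For cells above the CD61 median against the rest it was 0.36 (0.07 to 0.64), an interval above 0, and for the first split in thinned cells 0.07 (−0.51 to 0.66). By CD61 count, promoter CPM was 6.61 at 0, 10.9 at 1, 10.7 at 2, 7.75 at 3, 10.5 at 4, 12.9 at 5, 12 at 6 to 7 and 12.95 at 8 to 56 tags. The intervals of the lowest and highest bins, 3.78 to 10.7 and 9.55 to 17.2, overlapped. None of the 5 sites with at least 100 fragments was past 1.5-fold, beside 2.30% of 41036 open windows.

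For CD27, the locus had 237 CPM in 825 cells with at least 2 tags and 235 in 1578 cells without a tag, a log2 ratio of 0.01 (−0.06 to 0.09), where 3.91% of 34460 genes were called apart. The values at +20.5 kb and at the promoter were 0.07 (−0.09 to 0.23) and 0.02 (−0.36 to 0.38). None of 10 sites was past 1.5-fold, beside 2.09% of 67040 open windows, and likewise none of 10 for CD357, beside 1.97% of 60476. CD27 tags were found in 56.5% of cells and CD274 tags in all of them. Cells with an excess of overlapping fragments, a sign of doublets, were 13.7% of CD274 high and 6.61% of CD274 low cells and ranged from 11.5% to 13.9% of high and from 5.0% to 6.61% of low cells over the 4 antibodies. Without these cells the ratio at +20.5 kb by CD274 was 0.34 (0.15 to 0.53). In the 363 cells with at least 50 tags in all, with cuts set anew, it was 0.12 (−0.39 to 0.64). The ratio at +42.1 kb by CD357 was 0.07 (−0.94 to 1.14) in these cells.

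**Figure D4:**
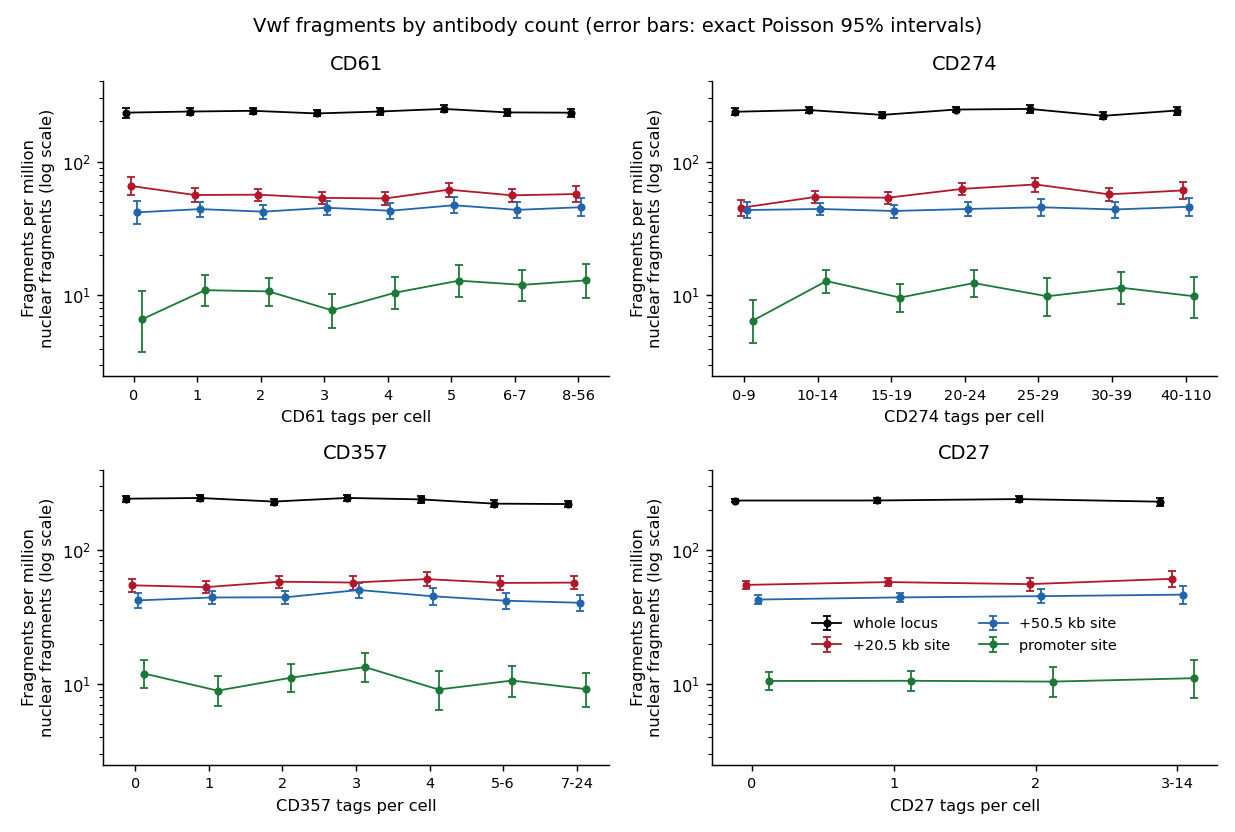
CPM, fragments per 1000000 nuclear fragments (vertical axis, log scale), over the whole Vwf locus (black), the +20.5 kb site (red), the +50.5 kb site (blue) and the promoter site at −0.1 kb (green), by the number of tags per cell of CD61, CD274, CD357 and CD27 (horizontal axes), with exact Poisson 95% intervals. The whole locus stays between 220 and 248 in every bin, and the +20.5 kb site moves from 45.1 at 0 to 9 CD274 tags to 60.9 at 40 to 110.

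**Figure D5:**
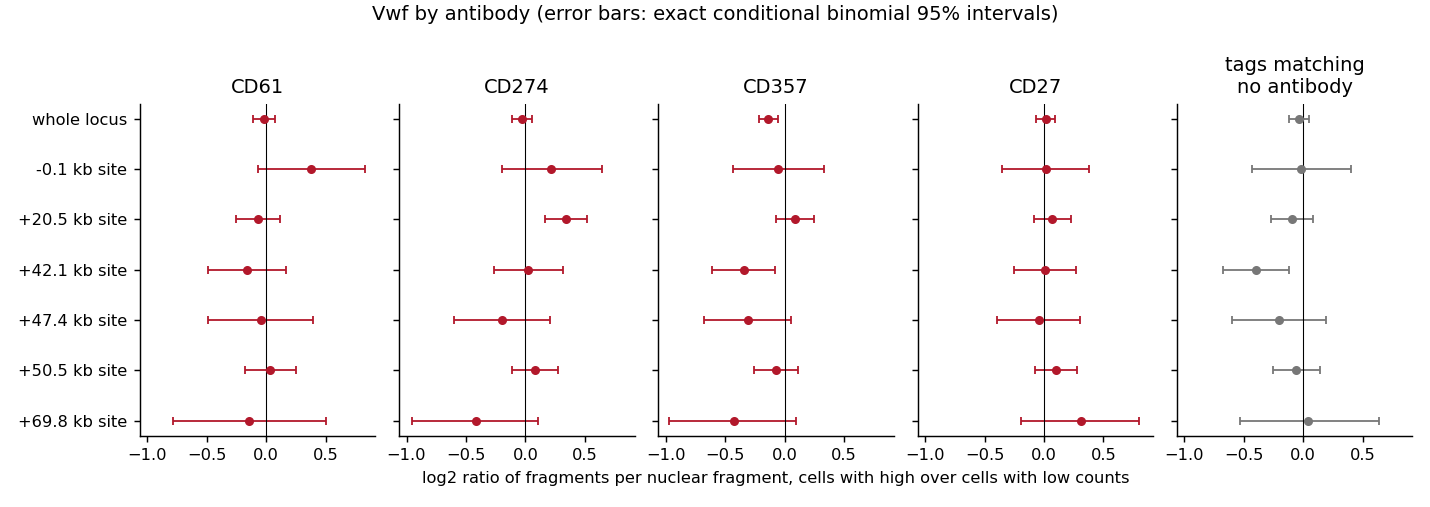
Log2 ratio of Vwf fragments per nuclear fragment in cells with high over cells with low tag counts (horizontal axes), for the whole locus and 6 leading sites (rows) and for CD61, CD274, CD357, CD27 and tags that matched no antibody (columns), with exact conditional binomial 95% intervals. The +20.5 kb site by CD274 lies at 0.34, and the +42.1 kb site is low both by CD357, at −0.35, and by tags that matched no antibody, at −0.40.

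With the 4 markers joined, the difference in Vwf openness was within counting error. The PLT gate took cells over the median tag count of both CD61 and CD274 whose CD357 and CD27 counts were not over theirs, and held 342 cells. The opposite MUL gate held 61. These cuts at tag medians were set here and are not the study's own gates. The gated cells are therefore not the same as its PLT-HSCs and MUL-HSCs. In young mice, the study reported Vwf RNA preferentially in its PLT-HSC clusters, a measure not read here. Open windows had 193 CPM in the PLT gate and 205 in the MUL gate, with 682 and 123 fragments and a log2 ratio of −0.09 (−0.37 to 0.20). The whole locus had 249 and 252 CPM, a ratio of −0.02 (−0.27 to 0.24), where 25.3% of 18747 genes were called apart at this small cell number. A fragment at +20.5 kb was present in 45.3% (39.96 to 50.76) of PLT-gated and 41.0% (28.6 to 54.3) of MUL-gated cells, and one at the promoter in 13.2% (9.76 to 17.2) and 9.84% (3.70 to 20.2). These shares were not corrected for depth, which had medians of 10101 and 9771 nuclear fragments. In CPM the +20.5 kb site had 62.1 in the PLT gate and 65.0 in the MUL gate, a log2 ratio of −0.08 (−0.56 to 0.47). After thinning, its shares were 30.6% and 30.5%. With 6 promoter fragments in the MUL gate, the promoter ratio of 0.45 spanned −0.66 to 2.07. By the number of platelet criteria met, from 0 to 4, the locus had 252, 221, 237, 237 and 249 CPM. The interval was 213 to 295 in the 61 cells that met no criterion and 233 to 266 in those that met all 4. The intervals of all these groups overlapped, so their order was not resolved.

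Across cells, the genes most like Vwf were named by the correlation of depth-corrected counts over 3629 cells of 1 library, among 16902 genes on other chromosomes. The 5 highest were Gm26708 (0.060), Gm26665 (0.059), Pou2f1 (0.058), Gm29724 (0.058) and AB124611 (0.056), and the range over all genes was −0.073 to 0.060. Correlations this weak in sparse counts are not a finding about these genes.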

How the data were processed

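The series held ATAC, gene expression and antibody (CITE-seq) libraries of 1 pool of HSCs, 3 samples with 1 in each group. Per the file headers and the submitters' processing notes, the authors ran Cell Ranger ARC 2.0.2 against mm10, which calls cells, collapses duplicate reads to 1 line per fragment and shifts fragment ends for Tn5. All values used are deposited counts with no normalization: fragments, per-barcode totals and antibody tags. The counting tool for tags was CITE-seq-Count, with no version given in the sources used here. Tag counts of 3724 barcodes were used with 43705382 fragments in the ATAC table, and 95 barcodes under 10 tags were left out. The RNA matrix was not analysed here.

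Insertions were the 2 ends of each fragment. A window was open with an insertion in at least 1% of cells, and a site was a run of adjacent open windows, whose share counts any overlapping fragment. Genes and exons came from GENCODE M21, sequences and promoters (250 bases before to 50 after a start) from RefSeq GRCm38.p6. Log2 ratios had 0.5 added to each count. Intervals were exact Clopper-Pearson, Poisson or conditional binomial ones. Genes needed 200 fragments over both groups, windows 100. Vwf, the sites named (the 6 most open and every transcript start), gene lists and cuts were chosen with earlier results of these data known. Doublets were not removed. The ratio calculation was run on simulated Poisson counts. Its intervals assume such counts, so the run does not test them for counts that spread more widely between cells. Alternatives covered windows, cell filters, depth, scaling and antibody scale. Python 3.11.15, numpy 2.4.6, scipy 1.17.1 and pandas 2.3.3 were used.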

Additional observations from a re-analysis of the deposited data

Results flagged for a closer look

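Tags that matched no antibody numbered 15768 in the kept cells, in a row of the antibody table that no comparison of the study uses. They were used here only to split cells as a reference for the antibody splits.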

How the results depend on the processing

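With no replicates, the limits are counting error, 1 pool and 1 sort, and the intervals cover the first only. Of 80 alternatives to the results by design, of which 2 were added after seeing the data (leaving out the +20.5 kb site or the cell with the most Vwf fragments), 66 stayed within the main interval, or within 1.5 times a count, and 14 moved beyond it. In the 363 cells with at least 50 tags the ratio by CD274 was 0.27 (0.02 to 0.52), past 1.2-fold and opposite in sign to −0.03 in all kept cells. High and low were cut anew there, at 52 or more and 38 or fewer CD274 tags, so the 2 contrasts are unlike. The cause of each move was not tested. Open windows numbered 103 at a minimum of 0.5% of cells and 26 at 2%. The share of cells with a fragment was 73.4% after thinning, 84.9% over the gene body and 88.7% in cells with at least 50 tags. Ratios at transcript starts alone were 0.13 for CD61, 0.086 for CD274 and −0.015 for CD357, and open windows alone gave 0.084 for CD274. With at least 50 tags, CD27 gave 0.11 (−0.16 to 0.37) and the PLT over the MUL gate 0.22 (−0.38 to 0.83). The ratio away from the leading site was −0.15 (−0.36 to 0.06) in these cells. Each of these intervals included 0 and the main value. Leaving the +20.5 kb site out gave −0.14 for CD274. Single sites under other settings were also added after seeing the data. By CD274, the +20.5 kb site ranged from 0.12 (−0.39 to 0.64, at least 50 tags) to 0.35. By CD357, the +42.1 kb site ranged from −0.37 to 0.07 (−0.94 to 1.14, at least 50 tags). By CD61, the promoter ranged from 0.07 (thinned) to 1.26 (−0.08 to 2.96, at least 50 tags). The intervals of these sites with at least 50 tags included 0 and the main values. No paired analysis was possible because each group is 1 library of the same pool of cells, so the groups share fewer than 2 replicate numbers.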
